A study of Arabidopsis with 27 samples.

Results

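The comparison described here sets Col-0 plants whose local leaf received extracellular ATP (eATP) against Col-0 plants whose local leaf received buffer (mock), as read in a systemic leaf that was itself not treated. It takes 6 of the 27 libraries of the series, 3 per group, chosen by their labels alone, and tests 16577 of the 32824 genes in the deposited table, those whose mean reached 1 FPKM, a fragment count scaled to transcript length and library size, over the 27 libraries. Same-numbered eATP and mock libraries were paired, so each gene has 3 differences, called pairs 1, 2 and 3 here.

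Both groups were wild-type Col-0 rosettes of 4 weeks grown in short days, with no transgene or mutation named. The eATP group received 300 µM βγmeATP, an ATP analogue, on the local leaf, the mock group received the buffer without it, and the systemic rosette leaf was frozen 30 min later. Each library came from a pool of 8 plants, so the p-values measure the spread between pools and not between single plants. For comparison the text also uses 3 Col-0 libraries whose local leaf received 100 mM L-glutamate (L-Glu), and eATP and mock libraries, 3 of each, from the lines labelled glr3.3glr3.6 and p2k1p2k2, treated at the same dose and time. What was measured is a bulk leaf, so that fewer cells of a type and less RNA per cell cannot be told apart.

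ATP that leaves damaged plant cells is read at the cell surface as a danger signal. Arabidopsis senses it with the lectin receptor kinases P2K1 and P2K2, whose activation opens calcium channels and switches on the NADPH oxidase RBOHD, and the resulting calcium and reactive oxygen species (ROS) signals can travel between leaves. Glutamate receptor-like channels such as GLR3.3 and GLR3.6 carry wound-triggered calcium signals along the vasculature. The comparison asks which transcripts differ in a distant leaf soon after one leaf has met eATP.

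No gene passed the test in this comparison. In limma, with Benjamini-Hochberg adjustment over all 16577 genes, 0 genes (0%) had an adjusted p under 0.05, and the smallest adjusted p was 0.287. At an unadjusted p under 0.05 there were 1376 genes, of which 467 (2.82%) were higher after eATP and 909 (5.48%) lower. Where no gene differed, a share of about 0.05 of all genes would be expected there. The 1376 genes lie above that share. With only the 6 libraries compared, and the same block, 429 genes had such a p, which is below it. With all 27 libraries and no block there were 438, also below it. The count thus depends on the libraries and the block used to estimate the error. In all 3 pairs, 1265 genes (7.63%) were higher and 2074 (12.5%) lower. The 3 eATP values lay entirely above the 3 mock values for 234 genes (1.41%) and entirely below for 541 (3.26%). The standard error of a gene's log2 difference had a median of 0.13. It comes from 1 limma fit to all 27 libraries, moderated across genes, and is not the spread of the 3 pair values. Every gene described below is therefore a gene that did not pass, given with its values.

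The 3 pairs, which share no library, agreed little across genes. Pearson's r between the differences was -0.0026 for pairs 1 and 2, 0.037 for pairs 1 and 3 and -0.16 for pairs 2 and 3, over 16577 genes that are not independent of each other. The median log2 difference was -0.02, -0.05 and 0.00083 in pairs 1, 2 and 3, and the SD over genes was 0.40, 0.45 and 0.54.

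One eATP library stood apart before any gene was considered. In Col-0 eATP 3 the deviation of a gene from its mean over the 27 libraries ran with gene length, at a Spearman rho of -0.51 against genomic span (start to end of the gene in the reference table, known for 16486 genes). The next lowest were -0.24 in the library labelled glr3.3glr3.6 eATP 1 and -0.20 in Col-0 mock 2, and the other 24 libraries lay between -0.075 and 0.17. Col-0 eATP 3 also had the highest summed FPKM, 822758, where the lowest of the 27 was 740955. The pair differences accordingly ran with span at a rho of -0.093, 0.20 and -0.52.

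The 3298 shortest genes, up to 1552 bases, had a median log2 difference of 0.28 in pair 3, and the 3297 longest, from 3662 bases, one of -0.36. In pairs 1 and 2 the same short and long genes had medians of 0 and -0.06, and of -0.12 and 0.06. Of the shortest genes 12.4% were higher in all 3 pairs and 6.06% lower, while of the longest 2.37% were higher and 18.5% lower. With both number 3 libraries left out 0 genes were called and 1357 had an unadjusted p under 0.05, and with the span trend removed from every library 0 were called and 1209 had one. Of 95 genes named here, 1 changed sign without number 3, 5 became over 1.5 times larger and 29 over 1.5 times smaller; with the span trend removed these counts were 3, 3 and 6. Values by pair, or with number 3 left out, are therefore given for the genes and lists most affected.

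**Figure D1:**
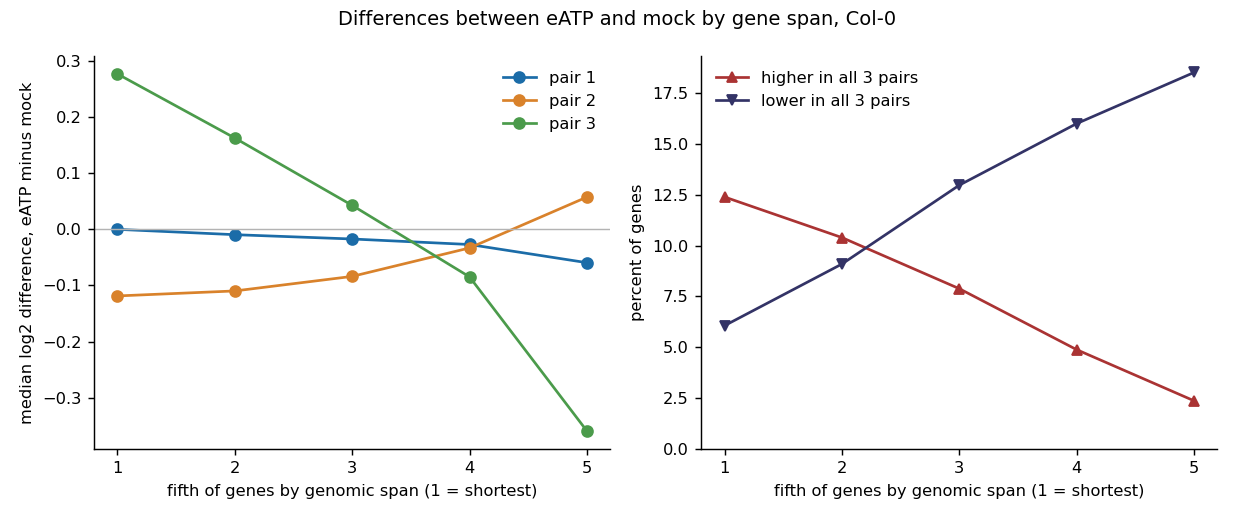
Left, median log2 difference between eATP and mock (FPKM + 1) in 5 equal bins of genes ordered by genomic span, with 1 line per same-numbered pair; right, percent of genes in each bin that were higher or lower in all 3 pairs. Pair 3 runs from 0.28 in the shortest genes to -0.36 in the longest, and the share of genes lower in all 3 pairs goes from 6.06% to 18.5%.

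The leaf identity of the 6 libraries was checked with marker genes. The 5 mesophyll markers, genes of the photosynthetic cell layer, summed to between 26417 and 33180 FPKM in mock and between 26141 and 30053 in eATP. Root markers summed to at most 0.186 FPKM and flower markers to at most 0.826 in any of the 6 libraries, and none of them reached the filter. The genes named in the mutant lines were tabulated in all 27 libraries. Each was higher, not lower, in the line named for it: GLR3.6 had a median of 90.4 FPKM in the 9 libraries labelled glr3.3glr3.6 against 1.01 in the 9 of Col-0, and P2K2 had 16.4 FPKM in those labelled p2k1p2k2 against 0.488. GLR3.3 lay between 5.85 and 8.05 FPKM against 3.19 to 4.97, and P2K1 between 3.44 and 10.2 against 0.917 to 2.18. These levels set each line apart from Col-0, but they do not show loss of the named genes.

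None of the eATP and glutamate receptors passed the test in Col-0. P2K1 (AT5G60300) was at 1.38, 1.58 and 0.917 FPKM in eATP 1, 2 and 3 and at 1.45, 2.18 and 2.01 in mock 1, 2 and 3. It was lower in all 3 pairs, but the groups overlapped, and the log2 difference was -0.33 ± 0.17 (SE, n = 3 pairs; limma adjusted p = 0.638). P2K2 (AT3G45430) was below 1 FPKM in all 6 libraries, with a log2 difference of -0.0045 ± 0.18. GLR3.3 (AT1G42540) differed by -0.09 ± 0.12 and GLR3.6 (AT3G51480) by -0.04 ± 0.16. GLR3.4, a related channel, gave -0.25 ± 0.14 and the ATP-hydrolysing apyrase APY1 -0.11 ± 0.09. Over the list of receptors, apyrases and clade 3 glutamate receptor-like channels, 9 of 11 members were tested. None of the 9 was higher in all 3 pairs and 2 were lower, beside 7.63% and 12.5% of all genes, and the median was -0.09 beside -0.03 for all genes. With the span trend removed the list median was 0.0030, beside 0.0065 for all genes. Without pair 3 it was -0.035 beside -0.040, so in both settings it lay close to all genes. In the same 2 settings GLR3.4 was at -0.14 and -0.08, and P2K1 at -0.26 and -0.17.

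Several transcription factors of the NAC class had higher values after eATP. NAC019 (AT1G52890), a NAC factor of drought and jasmonate responses, stood at 16.4, 11.6 and 9.22 FPKM in eATP 1, 2 and 3 and at 6.62, 5.12 and 4.56 in mock 1, 2 and 3. All 3 eATP values were above all 3 mock values. The log2 difference was 1.04 ± 0.20 (SE, n = 3 pairs), with pair values of 1.192, 1.04 and 0.88, an unadjusted p of 8.58e-05 and a limma adjusted p of 0.429. Without number 3 the difference was 1.12. It was the only gene that was both among the 5 of smallest p and among the 10 highest. The 10 highest and 10 lowest were taken from genes with 1 sign in all pairs and no overlap, so these traits were fixed by the choice.

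NAC019 belongs to the stress-responsive SNAC-A subgroup, whose other members were looked at after this value had been seen, so their direction is not independent evidence. All 7 were tested, 6 were higher in all 3 pairs (7.63% of all genes), 4 had no overlap between groups (1.41%) and 6 had an unadjusted p under 0.05 (2.82%). NAC102 was at 271, 219 and 217 FPKM after eATP and 184, 137 and 191 in mock, a log2 difference of 0.47 ± 0.10. ATAF1 was at 84.0, 63.6 and 63.8 FPKM against 61.7, 45.5 and 49.6, a difference of 0.42 ± 0.11. In both genes the lowest eATP library lay above the highest mock library. ATAF2 differed by 0.27 ± 0.07, NAC055 by 0.45 ± 0.13 and NAC032 by 0.27 ± 0.13. The exception was RD26, a factor of dehydration and abscisate responses, whose pair values were -0.15, 0.87 and 0.64. The subgroup's median was 0.27, 0.67 and 0.36 in pairs 1, 2 and 3. Across the 7 genes the limma adjusted p ran from 0.429 to 0.634.

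The thioredoxin TRX5 (AT1G45145), an h-type cytosolic thioredoxin that reduces protein disulfides and is known from immune redox control, was at 120, 81.2 and 79.0 FPKM after eATP and at 69.0, 44.7 and 41.5 in mock. Groups did not overlap, and the pair values of 0.79, 0.85 and 0.91 lay close together. The log2 difference was 0.85 ± 0.24 (limma adjusted p = 0.485). In the mock libraries of the line labelled p2k1p2k2 TRX5 was at 239, 25.9 and 42.2 FPKM. In those of the line labelled glr3.3glr3.6 it was at 94.2, 21.2 and 42.7. There it varied more between numbers than between treatments in Col-0. MYB95, an R2R3 MYB factor, had 7.82, 8.33 and 6.30 FPKM against 4.44, 5.50 and 3.37, a difference of 0.65 ± 0.17 (limma adjusted p = 0.442). AT1G59860 was at 15.6, 13.6 and 16.1 FPKM against a narrow mock range of 8.96 to 9.32, a difference of 0.67 ± 0.18. AT5G10695, a far more abundant transcript, was at 285, 211 and 185 FPKM against 168, 154 and 104, a difference of 0.68 ± 0.19. MYB95 and AT5G10695 overlap other genes in the reference table, and fragments could be divided between them.

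The other 5 of the 10 highest differences were less even between pairs. SAUR24, a small auxin-up RNA gene, gave 0.17, 0.66 and 1.21 and the heme oxygenase HO3 gave 0.33, 1.15 and 0.53, and HO3 overlaps another gene. AT2G08340 and AT1G07803, annotated as long non-coding RNAs, each overlap another gene, ABA2 in the case of AT1G07803, and their reads cannot be assigned with certainty, since no source used here states that counting used the strand. CWLP, a proline-rich cell wall linker protein, had a mean of 2.96 ± 1.42 that came from pairs 2 and 3 (1.88 and 6.98, with 0.01 in pair 1). It overlaps the non-coding AT3G22121, which stood at the opposite end of the ranking with -1.26 ± 0.41, so neither value can be read by itself.

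**Figure D2:**
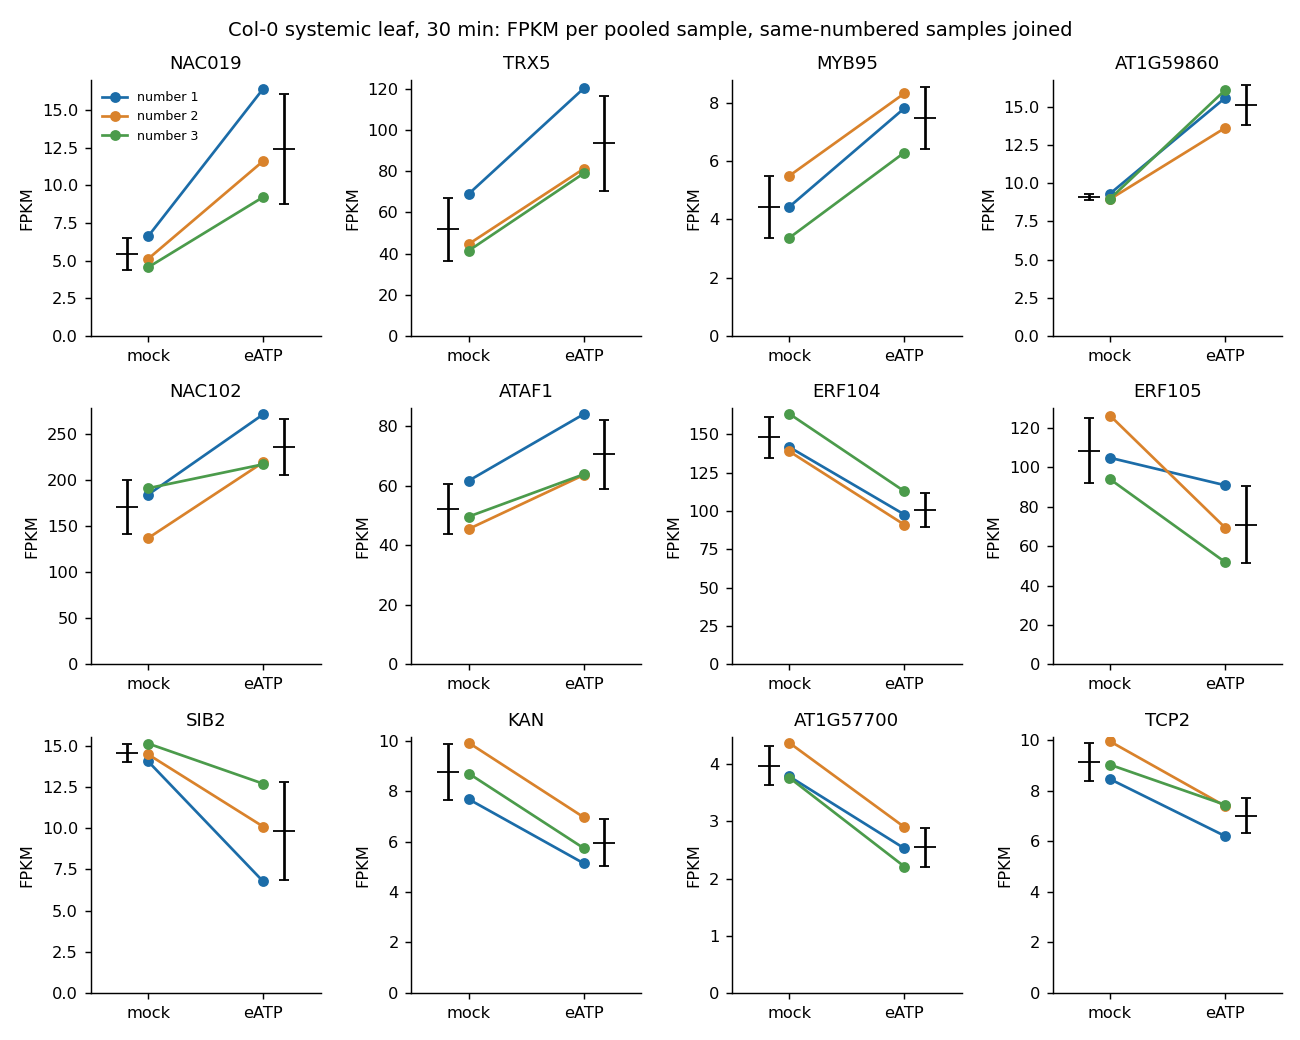
FPKM of 12 genes in the 3 mock and 3 eATP libraries of Col-0, with same-numbered libraries joined and the mean ± SD of each group in black. In every panel the 3 eATP values lie on one side of the 3 mock values, and the 3 lines run the same way; none of these genes passed the limma test.

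On the lower side, 2 ethylene response factors of group IX were among the 10 lowest genes. ERF104 (AT5G61600), a factor released by the immune kinase MPK6, was at 97.8, 91.1 and 113 FPKM after eATP and at 142, 139 and 163 in mock. The highest eATP library was below the lowest mock library, and the 3 pair values were -0.53, -0.60 and -0.53. The log2 difference was -0.55 ± 0.16 (limma adjusted p = 0.518). ERF105 (AT5G51190), its close relative, was at 90.8, 69.4 and 51.9 FPKM against 105, 126 and 93.9, a difference of -0.63 ± 0.21 (limma adjusted p = 0.54). ERF105 overlaps another gene. The other 4 factors of the group that were looked at, also after these values were seen, did not follow them: ERF5 differed by -0.22 ± 0.15, ERF6 by -0.12 ± 0.10, ERF2 by 0.12 ± 0.12 and ERF1A by 0.16 ± 0.11.

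The gene of smallest p was AT1G57700, at 2.53, 2.90 and 2.21 FPKM after eATP and 3.79, 4.37 and 3.76 in mock. Groups did not overlap, and the log2 difference was -0.49 ± 0.08 (unadjusted p = 1.73e-05, limma adjusted p = 0.287). It was called without the filter on low values (adjusted p = 0.0282) and with 1 block per number across genotypes (adjusted p = 0.034). SLP2 (AT4G34980), a subtilisin-like protease, was at 7.85, 14.2 and 15.2 FPKM against 10.3, 18.6 and 19.1, so the groups overlapped while each pair was lower by a like amount (-0.35, -0.37 and -0.31). KAN (AT5G16560), the KANADI factor that sets the abaxial side of the leaf, was at 5.14, 6.97 and 5.74 FPKM against 7.68, 9.92 and 8.70, a difference of -0.49 ± 0.11 (limma adjusted p = 0.442). SIB2, a VQ-motif protein that partners WRKY33, was at 6.77, 10.1 and 12.7 FPKM against 14.1, 14.5 and 15.1, with pair values of -0.95, -0.48 and -0.24. Both KAN and SIB2 overlap other genes.

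Of the rest of the named lower genes, AT5G02480, AT1G15260, AT5G26622 and AT1G09713 had differences of -0.51, -0.46, -0.45 and -0.82. AT1G09713 is a long non-coding RNA that overlaps another gene, as does AT3G03965, which had -1.11 ± 0.22. AT3G06780, the 1 other gene among the 5 of smallest p, was higher by 0.41 ± 0.08 and also overlaps other genes. The most negative value, -5.44 ± 1.44, belonged to AT1G74385, at 0.00032, 0.0015 and 1.41 FPKM after eATP and 79.7, 68.5 and 34.2 in mock. This locus overlaps XXT5, a xyloglucan xylosyltransferase gene of 58.4 to 91.8 FPKM after eATP and 54.4 to 79.5 in mock, and fragments could be divided between the 2 genes, so its value is uncertain.

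The ROS list, the readout closest to the study's title, had no common direction. RBOHD (AT5G47910), the oxidase that makes the travelling ROS signal, was at 127, 149 and 48.7 FPKM after eATP and at 101, 87.5 and 89.7 in mock. It was higher in pairs 1 and 2 and lower in pair 3, with a log2 difference of 0.08 ± 0.22 (limma adjusted p = 0.949). RBOHF, its relative, gave 0.26 ± 0.19, again with pair 3 opposite to the other pairs. Without number 3 RBOHD was at 0.55 and RBOHF at 0.60, and with the span trend removed at 0.21 and 0.46. The zinc finger factor ZAT10 gave -0.14 ± 0.11, the mitochondrial alternative oxidase AOX1A 0.29 ± 0.11 and the mitochondrial membrane protein OM66 -0.26 ± 0.15. Of 26 members 24 were tested: 2 were higher in all 3 pairs and 4 lower, beside 7.63% and 12.5% of all genes. Without overlap 2 were lower (ERF104 and ERF105, beside 3.26% of all genes), and the median was 0.02. Leaving out any 1 of the 6 libraries turned this median negative, to between -0.08 and -0.0063. Calcium channels, pumps and sensors had no common direction either, with 25 of 26 tested and a median of -0.01, or 0.09 without pair 3. In all 3 pairs 2 were higher and 2 lower, beside 7.63% and 12.5% of all genes. Of the calcium list the calmodulin-like CML9 differed by 0.26 ± 0.12, the touch-induced TCH3 by 0.11 ± 0.07 and CML41 by 0.93 ± 0.70, with CML41 pair values of -0.33, 1.49 and 1.64.

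The lists of heat and of water stress genes had their highest median in pair 3, though some members did not follow. Of 15 heat shock factors and chaperones 9 were tested. All 9 had a positive mean, 2 were higher in all 3 pairs (7.63% of all genes), and the list median was 0.42. By pair it was -0.08, 0.37 and 1.41, and without pair 3 it was 0.05. HSP90.1, a stress-induced cytosolic chaperone, was at 2.74, 3.93 and 15.6 FPKM after eATP and 3.099, 2.59 and 4.40 in mock, and HSP70-4 was at 11.4, 9.53 and 35.1 against 11.4, 9.19 and 11.8. In both, Col-0 eATP 3 alone stood far above the other 5 libraries. HSFB1, a heat shock factor that acts as a repressor, was more even, with pair values of 0.50, 0.37 and 0.38 and a difference of 0.42 ± 0.23. HSP101, the disaggregase, gave 0.40 ± 0.16 and HSFA2, a heat-induced factor, 0.60 ± 0.33. The part of the gene-span trend in the pair 3 values was not tested gene by gene; with that trend removed from every library the list median was 0.50.

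The abscisate, drought and cold list had 24 of 28 members tested. In all 3 pairs 3 were higher and 1 lower, beside 7.63% and 12.5% of all genes. At an unadjusted p under 0.05, 6 were on the higher side (2.82% of all genes) and none on the lower (5.48%). The median was 0.16 (-0.10, 0.11 and 0.29 by pair, 0.08 without pair 3). DREB2A, a dehydration and heat factor, was at 25.0, 10.5 and 12.4 FPKM after eATP and 14.0, 9.46 and 3.16 in mock, a difference of 0.87 ± 0.28 (limma adjusted p = 0.54). RD20, a dehydration-induced caleosin, was at 18.3, 13.1 and 8.81 FPKM against 7.55, 9.26 and 7.37, a difference of 0.62 ± 0.25. Both were higher in every pair, but their groups overlapped. Without number 3 DREB2A was at 0.47 and RD20 at 0.82. NCED3, which makes the rate-limiting cut in abscisate synthesis, was higher in pairs 2 and 3 only (0.89 and 0.68, with -0.10 in pair 1). The cold-induced KIN1 gave -0.36, 0.80 and 1.58 and the dehydrin ERD10 gave -0.10, 0.28 and 0.84, with pair 3 the highest in both.

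**Figure D3:**
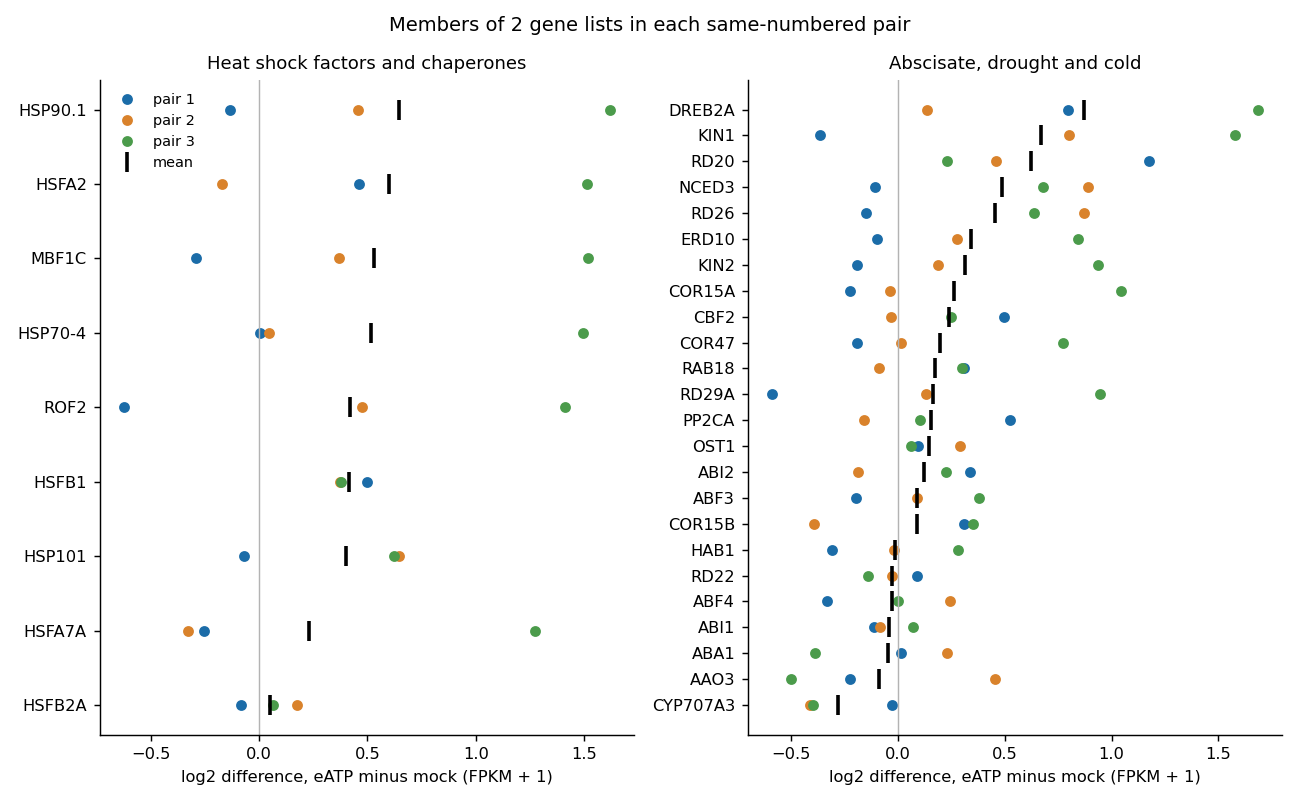
Log2 difference between eATP and mock (FPKM + 1) of the tested heat shock genes (left, 9 genes) and abscisate, drought and cold genes (right, 24 genes), with 1 point per same-numbered pair and the mean as a black bar. In the heat shock panel the pair 3 points of HSP90.1, HSFA2, MBF1C, HSP70-4, ROF2 and HSFA7A lie far to the right of the other pairs, and HSFB1 has its 3 points close together.

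The jasmonate list lay above all genes and the salicylate list close to them. Of 30 tested jasmonate genes (31 in the list) 4 were higher and 1 was lower in all 3 pairs, beside 7.63% and 12.5% of all genes. The median was 0.12 (0.10, 0.22 and -0.09 by pair, 0.25 without pair 3) beside -0.03 for all genes. Of the 30, 21 had a positive mean, as did 6903 of all 16577 genes. The repressor JAZ2 differed by 0.35 ± 0.18 and the allene oxide cyclase AOC3 by 0.31 ± 0.20. Of 14 tested salicylate genes (16 in the list) 3 were higher and 1 was lower in all 3 pairs, beside the same 7.63% and 12.5%. Their median was -0.01, or 0.13 without pair 3. The antimicrobial PR1 was at 34.4, 9.21 and 0.199 FPKM after eATP and 13.3, 0 and 0.0756 in mock, and PR2 at 199, 58.1 and 12.8 against 124, 3.499 and 6.79. Both varied more between numbers than between treatments, with differences of 1.61 ± 1.201 and 1.74 ± 1.37. WRKY70, a factor of salicylate responses, was lower in all 3 pairs by -0.44 ± 0.19.

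Early immune genes had a median of 0.02 over 25 tested of 28, or 0.09 without pair 3. In all 3 pairs 2 were higher and 2 lower, beside 7.63% and 12.5% of all genes. WRKY22 was at 113, 84.9 and 94.4 FPKM against 99.1, 71.6 and 67.3, a difference of 0.30 ± 0.10 (limma adjusted p = 0.54), and WRKY18 differed by 0.30 ± 0.14. The flagellin receptor FLS2 gave -0.30 ± 0.15, or -0.01 without number 3. Of 16 tested ethylene genes (17 in the list) 4 had an unadjusted p under 0.05, all lower (5.48% of all genes), and the median was -0.11, or -0.0057 without pair 3. They were the ethylene receptors ERS1 (-0.34 ± 0.10) and ERS2 (-0.38 ± 0.14), EBF2, an F-box protein that removes the ethylene factor EIN3 (-0.26 ± 0.10), and the synthesis gene ACS7 (-0.40 ± 0.18). Without number 3 ERS1 was at -0.13 and EBF2 at -0.08, and with the span trend removed EBF2 had an unadjusted p of 0.0802. The repressor ERF4 gave 0.19 ± 0.10.

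Growth and metabolism lists were near 0. The cell wall and growth hormone list had 20 of 24 members tested and a median of -0.03. GA2OX6, which inactivates gibberellin, was at 78.6, 79.3 and 77.5 FPKM after eATP and 66.6, 65.3 and 61.8 in mock, with no overlap and a difference of 0.28 ± 0.10. BR6OX2, which makes brassinosteroids, was at 1.103, 1.49 and 1.02 FPKM against 1.76, 1.94 and 2.19, with no overlap and a difference of -0.43 ± 0.16. The auxin repressor IAA29 gave -0.56 ± 0.25 and the expansin EXPA1 -0.42 ± 0.20. Medians were 0.01 for 19 nuclear photosynthesis genes, -0.03 for 14 clock genes and -0.01 for 10 genes of glutamate and nitrogen metabolism.

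Genes often used as references differed in one case. ACT2 differed by -0.05 ± 0.05 and PP2AA3 by 0.03 ± 0.06. The polyubiquitin UBQ10 was at 2004, 1616 and 1719.6 FPKM after eATP and 1648, 1204 and 1108 in mock, higher in all 3 pairs with a difference of 0.45 ± 0.11 (limma adjusted p = 0.442). Of 5 polyubiquitin genes, looked at after UBQ10 was seen, 3 were higher in all 3 pairs (7.63% of all genes), with 0.51 ± 0.12 for UBQ11 and 0.37 ± 0.11 for UBQ14. The median of the 5 was 0.37, or 0.14 without pair 3. These genes carry near-identical repeats, so their reads may be shared between them.

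Markers of several leaf cell types had lower values after eATP. The 5 mesophyll markers had a median of 0.02 with 3 positive, but by pair it was -0.02, -0.16 and 0.19. Without pair 3 the mesophyll median was -0.099, beside -0.040 for all genes. With the span trend removed it was -0.02. All 7 tested guard cell markers had a negative mean (median -0.22), as did all 4 tested xylem and vascular cambium markers (median -0.30), with 3 lower in all 3 pairs in each list beside 12.5% of all genes. Of the 7 tested epidermis and 7 tested phloem markers 6 and 5 were negative, with medians of -0.13 and -0.16. The summed level of the guard cell list was 19.7 to 26.9 FPKM after eATP and 22.1 to 34.8 in mock, and that of the xylem list 12.1 to 18.18 and 14.0 to 35.6, so the ranges overlapped. HB-8, a vascular homeobox factor, differed by -0.31 ± 0.11, the xylem protease XCP2 by -0.48 ± 0.22, the epidermal factor PDF2 by -0.22 ± 0.10 and the wax gene CER1 by -0.50 ± 0.27. The tested guard cell, epidermis and xylem genes had median spans of 3094, 3554 and 3475 bases, above the 2415 of all genes. With the span trend removed the medians were -0.20, -0.02 and -0.24, beside 0.0065 for all genes, and without pair 3 they were -0.14, -0.04 and -0.33. The phloem median was -0.09 with the span trend removed and 0.0089 without pair 3, so its direction was lost. The epidermis median without pair 3, -0.036, was close to that of all genes, -0.040. Of the named markers PDF2 was at -0.03 with the span trend removed.

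**Figure D4:**
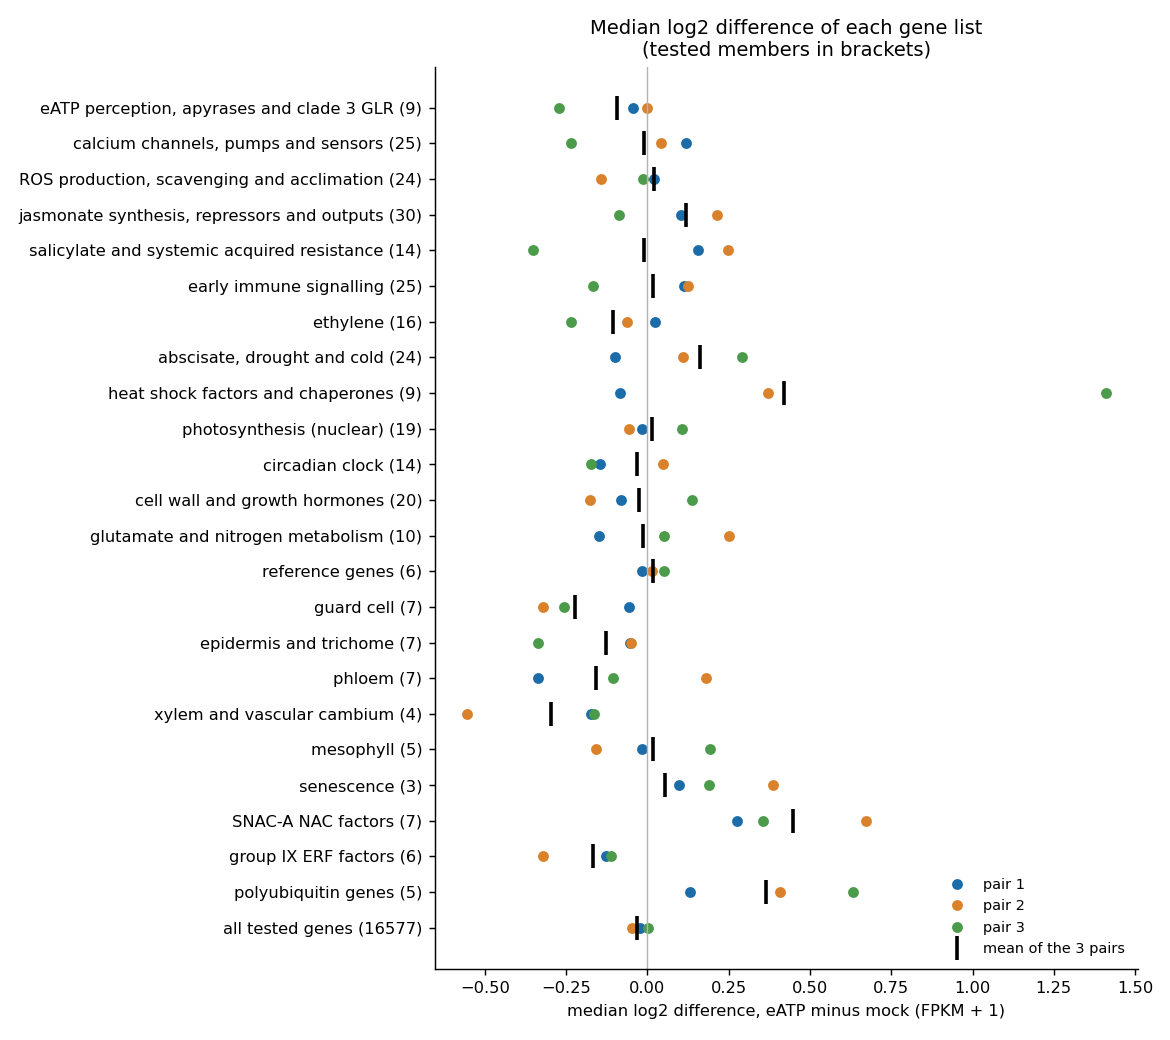
Median log2 difference between eATP and mock (FPKM + 1) of each gene list with at least 3 tested members, by pair (points) and for the mean of the 3 pairs (black bar); the lowest row is all 16577 tested genes. The heat shock list spreads from -0.08 to 1.41, while the 3 points of the SNAC-A list lie at 0.27, 0.67 and 0.36.

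L-Glu and eATP were then compared directly in Col-0, without the shared mock. In limma 1 gene of 16577 (0.00603%) passed, SLP2, which was lower after eATP than after L-Glu by 0.53 ± 0.07 on the log2 scale (adjusted p = 0.0172). SLP2 was at 12.2, 19.9 and 22.7 FPKM in L-Glu 1, 2 and 3, above its same-numbered eATP library each time, and each L-Glu value also lay above the same-numbered mock value. The call was lost, with 0 genes called, under median-of-ratios scaling, without the block on replicate number, with that block across genotypes, with only the libraries compared, and without Col-0 eATP 1, Col-0 eATP 3 or Col-0 L-Glu 1. Without Col-0 L-Glu 3 SLP2 was lost and 1 other gene, AT2G08330, was called, and without Col-0 eATP 2 there were 284 calls. NAC019 was at 6.87, 8.59 and 6.33 FPKM after L-Glu, and its difference from eATP was 0.67 ± 0.20 (limma adjusted p = 0.228). It was chosen for its Col-0 eATP values, which this test also uses. Against the shared mock the SNAC-A median was 0.45 for eATP and 0.09 for L-Glu, and ERF104 was at -0.55 for eATP and -0.47 for L-Glu. These genes were chosen for differences that use the same mock libraries. A like value for L-Glu, such as that of ERF104, is therefore favoured in advance.

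The eATP response of Col-0 was set against that of each line in a test of the difference between the 2 responses. In limma 0 genes (0%) passed for the line labelled glr3.3glr3.6, with 1044 at an unadjusted p under 0.05 and a smallest adjusted p of 0.363. For the line labelled p2k1p2k2 0 genes (0%) passed, with 1604 at an unadjusted p under 0.05 and a smallest adjusted p of 0.205. The directions below rest on lines in which the transcript levels do not show loss of the named genes. NAC019, NAC102, TRX5 and ERF104 were chosen for their Col-0 values, which also enter these tests. A response in the line that is weaker than in Col-0, or opposite to it, is therefore favoured in advance for them.

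In the line labelled p2k1p2k2, NAC019 was at 15.8, 4.01 and 3.89 FPKM after eATP and 19.98, 5.76 and 5.91 in its mock, lower in every pair where Col-0 was higher in every pair. The response of that line minus that of Col-0 was -1.46 ± 0.28 (unadjusted p = 9.35e-05, limma adjusted p = 0.205). NAC102 gave -0.71 ± 0.14 in the same test (limma adjusted p = 0.205), and TRX5 -1.01 ± 0.33 (limma adjusted p = 0.369). The 3 genes of smallest p in that test were SLP2 (0.58 ± 0.10), KNAT4, a class II homeobox factor (0.78 ± 0.14), and GGP1, a gamma-glutamyl peptidase of glucosinolate synthesis (-0.67 ± 0.13), all at an adjusted p of 0.205. GGP1 was at 317, 267 and 274 FPKM in Col-0 eATP and 230, 235 and 239 in Col-0 mock, and at 355, 179 and 175 against 476, 208 and 253 in the line labelled p2k1p2k2. The SNAC-A median was 0.45 in Col-0 and -0.20 in that line, for a subgroup chosen for its Col-0 values.

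In the line labelled glr3.3glr3.6 NAC019 was at 12.99, 8.01 and 5.51 FPKM after eATP and 9.94, 2.90 and 4.18 in its mock, higher in every pair as in Col-0. The difference between the responses was -0.41 ± 0.28 (limma adjusted p = 0.843), and that of NAC102 was 0.08 ± 0.14 (limma adjusted p = 0.937). ERF104 was at 108, 113 and 120 FPKM against 170, 198 and 147 in that line, lower in every pair as in Col-0, with a difference between responses of -0.02 ± 0.22. The 3 genes of smallest p were AT5G53830 (0.99 ± 0.17), PMSR2, a methionine sulfoxide reductase (0.61 ± 0.11), and AT1G57700 (0.60 ± 0.11), each at an adjusted p of 0.363. AT5G53830 was at 2.18, 2.95 and 2.44 FPKM in Col-0 eATP and 3.32, 5.42 and 4.19 in Col-0 mock, but at 5.58, 7.76 and 7.46 against 4.49, 4.67 and 5.72 in that line.

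**Figure D5:**
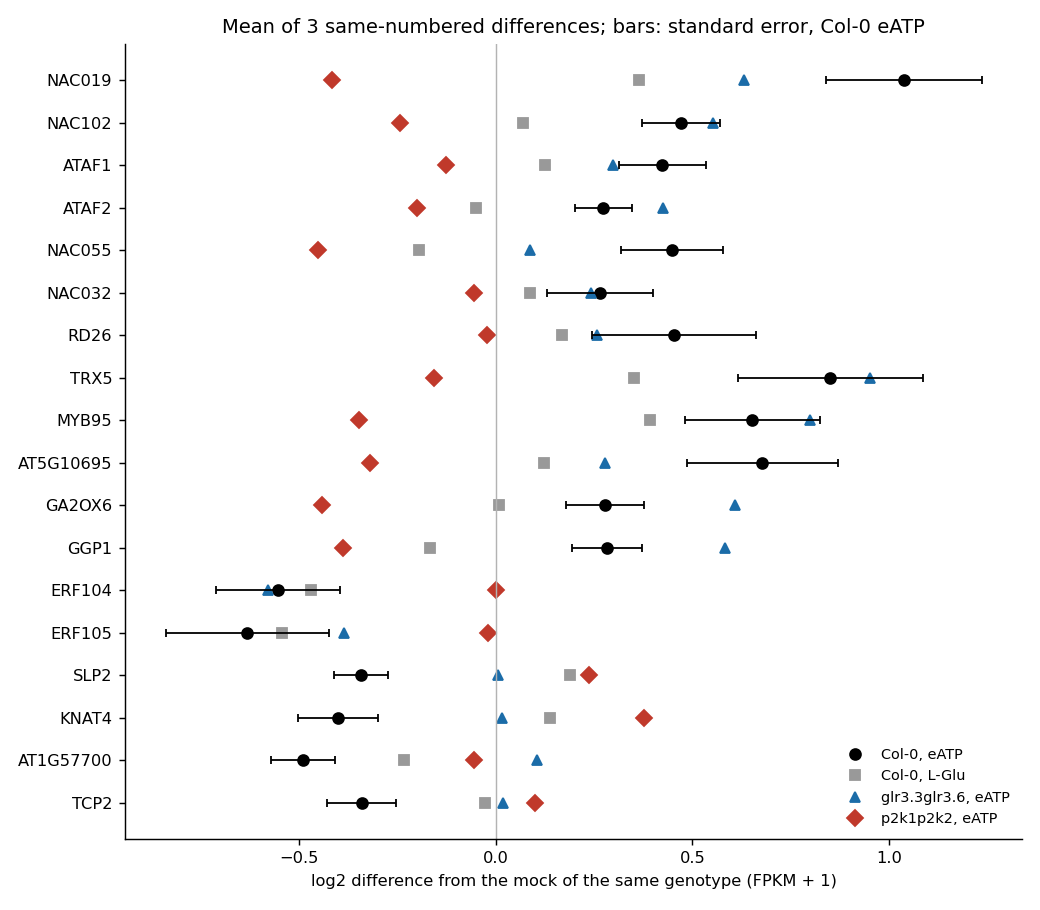
Log2 difference from the mock of the same genotype (FPKM + 1; mean of 3 same-numbered differences) of 18 genes for eATP in Col-0 (circles, with standard errors), L-Glu in Col-0 (squares), and eATP in the lines labelled glr3.3glr3.6 (triangles) and p2k1p2k2 (diamonds). The 7 SNAC-A genes at the top, chosen after the Col-0 value of NAC019 was seen, lie right of 0 in Col-0 after eATP. They lie left of 0 in the line labelled p2k1p2k2, and no difference between the responses passed the test.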

How the data were processed

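RNA was sequenced from pooled systemic leaves, and the authors deposited 1 table of FPKM for 27 libraries. Per the submitters' processing notes the tools were Cuffdiff 2.2.1, SAMtools 1.19, Cufflinks 2.2.1, Trim Galore 0.6.7, HISAT2 2.2.1 and FastQC 0.11.9, with the build TAIR10; their settings, and any scaling between libraries, are not given in the sources used here. FPKM hold no read counts, so depth is unknown and no counting interval was computed; an exact 0 may be a failed estimate.

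Differences were computed on log2(FPKM + 1), with a pseudocount of 1, which understates the change of low genes. Genes whose mean over 27 libraries reached 1 FPKM were fitted with the lmFit, contrasts.fit and trended eBayes functions of limma 3.58.1 (R 4.3.3), with 1 mean per group and replicate number within genotype as a block (12 residual and 3.755 prior degrees of freedom). Tests were two-sided and adjusted by Benjamini-Hochberg over all genes of a comparison.

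The blocked fit is used because the comparison is defined by same-numbered pairs. Deviations of same-numbered eATP and mock libraries from their group means correlated at 0.42, 0.14 and 0.037 for numbers 1, 2 and 3, so number 3 hardly pairs.

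The members and lists were chosen with earlier results of these data known. Genes named are the 5 of smallest p; the 10 highest and 10 lowest differences among genes of at least 5 FPKM over the 6 libraries with 1 sign in all pairs and no overlap between groups; members of each list with the smallest p or largest difference; and the 4 genes of the mutant lines. RBOHD, RBOHF, the SNAC-A, ERF, polyubiquitin and TCP genes, and some list and marker genes, were added after values were seen. The reference gene table held 32539 of the identifiers and lacked 285; overlaps and spans come from that table, whose coordinates are not printed because its build differs. Promoter motifs were planned but not analysed here.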

Additional observations from a re-analysis of the deposited data

Results flagged for a closer look

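The median log2 difference of the epidermis and trichome markers was -0.13 in Col-0 and 0.21 in the line labelled p2k1p2k2, with all 3 same-numbered differences negative in Col-0 (-0.05, -0.05 and -0.34) and all 3 positive in the other (0.21, 0.14 and 0.21). The difference between the lines was not tested for the list. Over all genes the Col-0 pair medians were -0.02, -0.05 and 0.00083, so pairs 1 and 2 of the epidermis list lay near them. Without pair 3 the Col-0 epidermis median was -0.036, beside -0.040 for all genes. The median of the xylem and vascular cambium markers was -0.30 in Col-0 and 0.15 in the line labelled glr3.3glr3.6, again with all 3 pairs on opposite sides (-0.17, -0.56 and -0.16 against 0.03, 0.14 and 0.25). This difference was not tested either. Both lists were flagged because all 3 pairs had opposite signs, so that trait was fixed by the choice. With the gene-span trend removed the Col-0 medians were -0.02 and -0.24.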

How the results depend on the processing

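For eATP against mock in Col-0, 0 genes were called under every setting run except 2. Without the filter on low values 2 were called, AT1G57700 and AT1G56270, the latter listed at 0 in all 3 eATP libraries and at no more than 0.272 FPKM in mock; with 1 block per number across genotypes 1 was called, AT1G57700. With no replicate block 0 were called, with 438 at an unadjusted p under 0.05 and a smallest adjusted p of 1. Leaving out 1 library gave 0 to 0. The span correction and the settings that leave out both libraries of a number were chosen after seeing the data. For eATP against L-Glu the count was 0 under median-of-ratios scaling, no replicate block, the block across genotypes and only the libraries compared, 2 with library weights, and 0 to 284 without 1 library. For the line labelled p2k1p2k2 minus Col-0 it was 9 with library weights, NAC019, NAC102, SLP2, GGP1 and GA2OX6 among them, and 0 to 1 without 1 library; for glr3.3glr3.6 it was 0 to 1. The cause was not tested.

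Of the genes named, 5 that did not pass changed sign. P2K2 (-0.0045) was 0.0213 under quantile normalization, 0.0155 under median-of-ratios scaling, 0.0166 with a pseudocount of 0.1, 0.11 with library weights, 0.12 without number 2 and 0.0705 with the span trend removed. GLR3.6 was 0.0092 under quantile normalization, 0.0431 with library weights, 0.0021 and 0.0113 without numbers 2 and 3, and 0.0677 with the span trend removed. GLR3.3 was 0.0030 with the span trend removed, ERF2 -0.0085 with library weights, and RBOHD -0.0534 and -0.27 without numbers 1 and 2. Without 1 library P2K2 ran from -0.0902 to 0.14, GLR3.3 from -0.18 to 0.0063, GLR3.6 from -0.14 to 0.0351 and RBOHD from -0.27 to 0.53. Over all named genes and settings 1857 values kept their sign and side of the threshold, 24 changed sign and 2, both of AT1G57700, passed it; of the list medians 450 moved by less than the spread between pairs and 10 by more. The depth of each library is unknown, so the limit it sets was not computed.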

Other observations

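Genes of the TCP family, transcription factors that set leaf growth and shape, were found by reading all 149 symbol families with at least 8 tested members, so this is a description of a family chosen for its values. Of 16 members 13 were tested. In Col-0, 6 were lower in all 3 pairs (12.5% of all genes) and 1 was higher (7.63%). Without overlap between groups 3 were lower (3.26% of all genes), and the median was -0.24 (-0.21, -0.20 and -0.41 by pair). TCP2 was at 6.205, 7.39 and 7.44 FPKM after eATP and 8.45, 9.95 and 9.02 in mock, a log2 difference of -0.34 ± 0.09 (limma adjusted p = 0.442). TCP3 differed by -0.65 ± 0.16, TCP4 by -0.43 ± 0.14 and TCP24 by -0.23 ± 0.09, which with TCP2 belong to the group that limits leaf growth. TCP5 gave -0.41 ± 0.21 and TCP15 -0.40 ± 0.13. Family medians were -0.02 for L-Glu in Col-0, and -0.02 and 0.08 for eATP in the lines labelled glr3.3glr3.6 and p2k1p2k2. With the gene-span trend removed the Col-0 median was -0.23.

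Of 5 senescence markers 3 were tested, with pair medians of 0.10, 0.39 and 0.19 and a median of 0.05 for the mean of the pairs, which ran from -0.01 to 0.46 when 1 library was left out.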
